A study of Mus musculus with 10 samples.

Results

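Brains of newborn mice with a single X chromosome of maternal origin (XmO) were set against brains with a single X of paternal origin (XpO). The comparison used 5 of the 10 Affymetrix MG-U74Av2 arrays of the series, 3 XmO arrays (numbered 1, 2 and 7) and 2 XpO arrays (15 and 18), chosen by the genotype in their labels. It covered all 12422 probe sets that are not controls, of which 8695 were bright enough to be tested. RNA came from whole brain at postnatal day 0. For the XmO animals (39,Xm) the labels give the parents C57BL/6J x C3H/Paf, and for the XpO animals (39,Xp) they give In(X)/C3H x C57BL/6J. Females with 40 chromosomes and both X chromosomes from the same crosses, called XX_Paf (3 arrays) and XX_InX (2 arrays), gave the difference between the crosses in animals that carry both parental X chromosomes. In mouse nomenclature Paf is patchy fur, an X-linked mutation, and In(X) is an inversion of the X; neither is known from the labels to be carried by the animals measured. Neither pooling of brains nor the order in which the parents are written is stated. If the mother is written first, the crosses are reciprocal and the single X came from the C57BL/6J parent in both groups. Parental origin of the X and direction of the cross differ together, so they cannot be told apart within the single X arrays.

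In a female with a pair of X chromosomes, 1 is silenced in each cell, a process driven by the noncoding RNA Xist, so the tissue is a mixture of cells that use the maternal or the paternal X. An animal with a single X has no such mixture and every cell uses the same parental copy. An imprinted gene is marked in the germ line so that only the copy from one parent is read. Where such a gene is X-linked, its level would therefore differ between XmO and XpO brains. In mouse brain the best known X-linked imprinted genes belong to the Xlr family (X-linked lymphocyte regulated), among them Xlr3b and Xlr4b, of which the maternal copy is expressed. The comparison addresses which transcripts, on the X or on the autosomes, differ in level with the parent that gave the single X.

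The array carries 1 tested probe set for this family, shared by Xlr3a, Xlr3b and Xlr3c, related copies on the X that it cannot separate. The 250 bases before the start of each copy (RefSeq, build GRCm38.p6) are shown to compare the copies upstream of their transcripts, and every CpG, the dinucleotide that carries DNA methylation, is in capitals. The windows lie at chrX:73097096-73097345 (minus strand, Xlr3a), chrX:73191929-73192178 (plus strand, Xlr3b) and chrX:73265391-73265640 (minus strand, Xlr3c).
Xlr3a: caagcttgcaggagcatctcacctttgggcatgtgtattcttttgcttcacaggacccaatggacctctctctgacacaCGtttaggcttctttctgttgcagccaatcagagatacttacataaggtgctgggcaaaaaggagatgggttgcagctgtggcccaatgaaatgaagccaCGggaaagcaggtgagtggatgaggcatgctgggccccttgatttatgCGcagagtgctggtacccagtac
Xlr3b: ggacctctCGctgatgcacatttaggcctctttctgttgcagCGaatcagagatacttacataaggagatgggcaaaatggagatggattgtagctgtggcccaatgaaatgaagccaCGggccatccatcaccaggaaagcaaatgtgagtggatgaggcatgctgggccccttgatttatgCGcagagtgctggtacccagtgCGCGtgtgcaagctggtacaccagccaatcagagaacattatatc
Xlr3c: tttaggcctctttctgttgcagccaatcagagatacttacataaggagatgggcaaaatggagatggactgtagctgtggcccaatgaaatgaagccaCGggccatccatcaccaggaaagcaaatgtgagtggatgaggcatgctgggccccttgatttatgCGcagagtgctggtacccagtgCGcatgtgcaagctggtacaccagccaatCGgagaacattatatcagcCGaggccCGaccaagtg
The windows of Xlr3b and Xlr3c were 98.26% identical over 230 aligned positions. Xlr3a was 85.78% identical to Xlr3b over 204 positions and 86.41% identical to Xlr3c over 184. The Xlr3a window held 3 CpG dinucleotides and the other windows 6 each. The letters CG, which read the same on both strands, were present in 92.1% of all 32851 promoter windows of 250 bases, with a median of 6 per window. No methylation was measured here.

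Values are intensities, scaled by the depositors to a common mean, and differences are on the log2 scale after raising values below 15 to 15. Background on each array was taken as the brightest of its 11 probe sets for Y-linked genes, absent from these genomes. It lay between 33.6 and 136.6. Xist, which marks the inactive X, was at or under that background on 4 of 5 single X arrays (21.3 to 30.7 in XmO, 40.6 and 49.9 in XpO) and at 1673 to 4082 in XX females. Log2 intensities correlated at 0.937 to 0.959 between arrays (Pearson's r, across probe sets). The pair of XpO arrays correlated at 0.944, no higher than XmO with XpO arrays (0.944 to 0.955), and XmO arrays correlated with each other at 0.950 to 0.956. The median SD between arrays of a group was 0.19 for XmO and 0.22 for XpO (log2). Neurod6 and Tbr1, which mark cortical neurons, and Apoe, which marks glia, were above background on all 5 arrays. XpO 15 and XpO 18 differed enough that several results below are given without each of them. Adjusted p-values are those of limma over all 8695 probe sets, and they measure the spread between these samples, which may be technical.

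1 probe set passed the test, 0.0115% of those tested, and it was lower in XmO. It belongs to Cmip, on chromosome 8, which codes for an adaptor protein named as an inducer of the transcription factor c-Maf. Its intensity was 719.5, 896 and 746 on the XmO arrays and 2103 and 2526 on the XpO arrays, so the groups were far apart. The fall was 1.56 (SE 0.14; limma, adjusted p = 7.65e-04), lower on 3 of 3 XmO arrays. In XX females, which carry both parental X chromosomes, the same cross difference was present. Intensities were 658, 720.2 and 762 in XX_Paf against 2328 and 2290.5 in XX_InX, a log2 difference of -1.70 (SE 0.14; limma, adjusted p = 2.83e-04). The single X and XX differences differed by 0.14 (SE 0.20; limma, adjusted p = 0.930). Another Cmip probe set was bright in all groups and showed -0.09 (7144 ± 264 in XmO, SD, n = 3; 7628 ± 159 in XpO, n = 2), and the remaining one was near 9 and not tested. Leaving out XpO 15 raised the number that passed by limma to 7; it was 4 when XmO 1 was left out and 2 when XpO 18 was, Cmip included each time. Without XpO 18 and XX_InX 1 together, Cmip missed the threshold (-1.42; limma, adjusted p = 0.0524).

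Beyond Cmip, 420 probe sets had an unadjusted p under 0.05, 4.83% of those tested, 215 lower and 205 higher in XmO. The median difference over all tested probe sets was 3.63e-04, and its quartiles were -0.15 and 0.15. 113 probe sets differed by over 1 on the log2 scale, 58 lower and 55 higher in XmO. The 5 arrays did not overlap between the groups for 768 probe sets with XmO lower (8.83%) and 747 with XmO higher (8.59%). Among XX females, 7 probe sets passed (0.0805%), and 1199 had an unadjusted p under 0.05 (13.8%). The probe sets described next did not pass the test, and their values are descriptive. They are the 12 of smallest p in each direction with 1 gene symbol, groups that do not overlap and a brighter group above background.

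**Figure D1:**
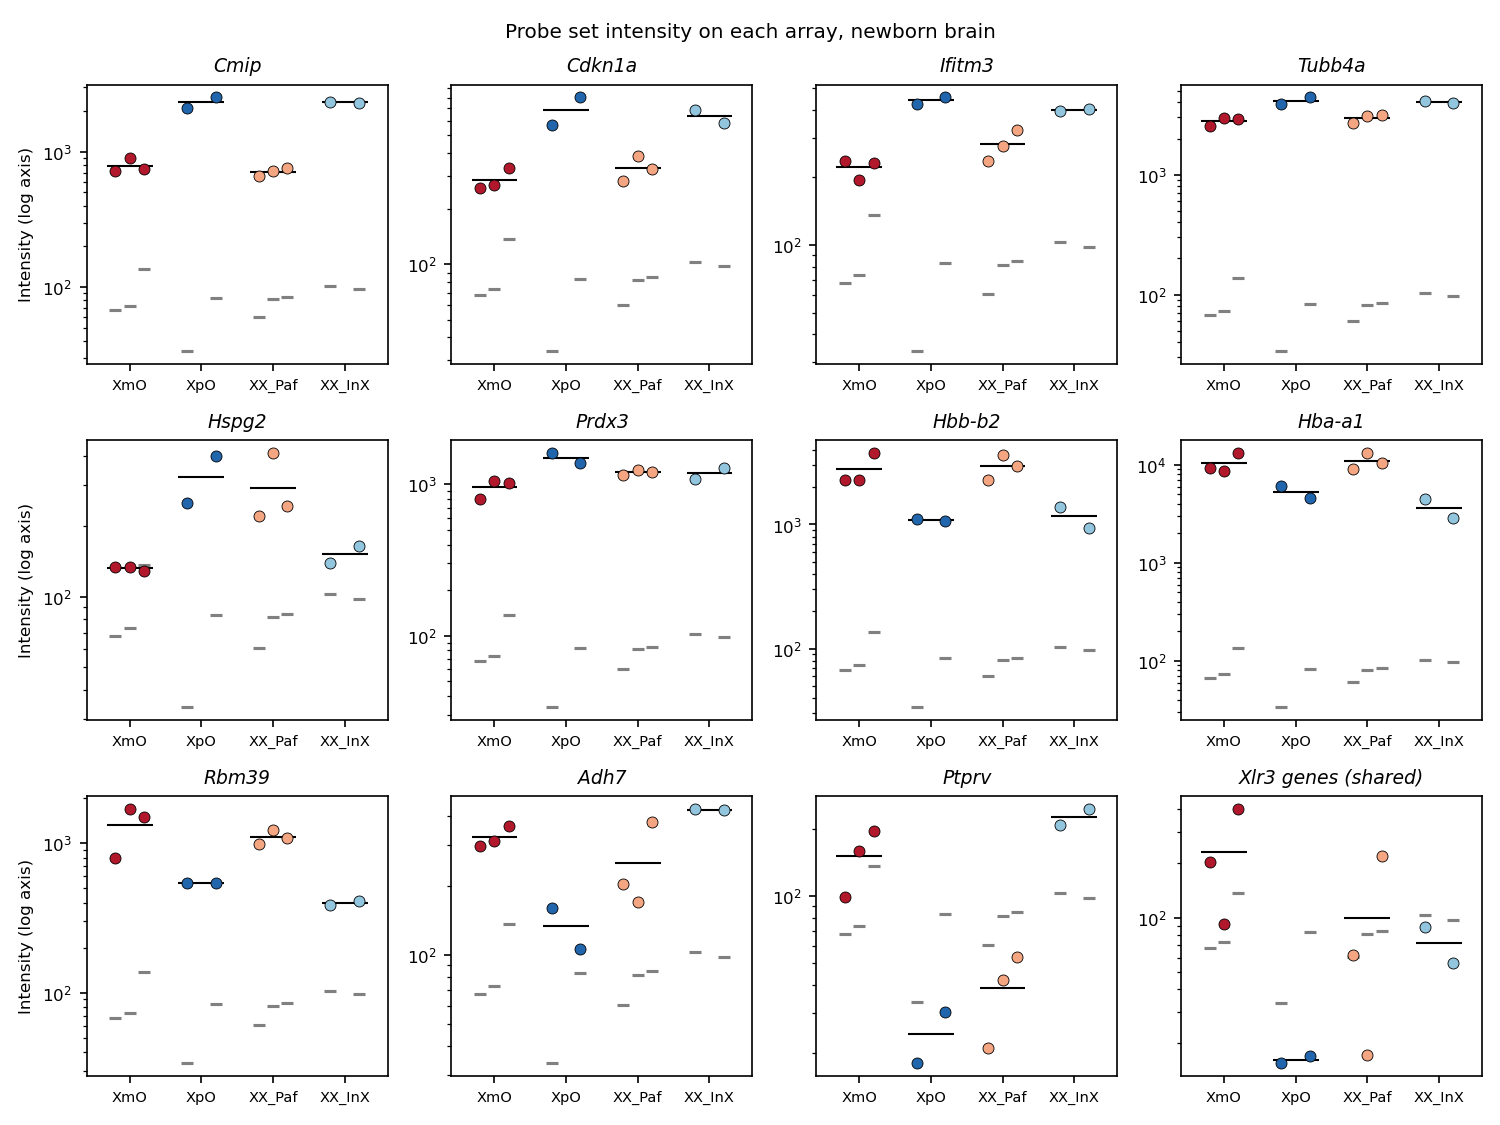
Intensity of 12 probe sets on each array (log axis), with XmO, XpO, XX_Paf and XX_InX side by side; black bars are group means and grey ticks mark the background of each array. Cmip, Cdkn1a, Tubb4a, Hbb-b2 and Rbm39 separate XX_Paf from XX_InX in the same direction as XmO from XpO, whereas Hspg2, Adh7 and Ptprv separate them in the opposite one.

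Several of the lower estimates were shared with the XX females of the same crosses. Cdkn1a, the cyclin-dependent kinase inhibitor p21 and a p53 target, was at 260.2, 269 and 334 in XmO and at 569 and 805 in XpO. That is a difference of -1.24 (SE 0.21; limma, adjusted p = 0.111), and in XX females it was -0.94. Its other probe set showed -0.11 in single X brains and -0.74 in XX females. Ifitm3, an interferon-induced membrane protein that restricts virus entry, was at 237.5, 195 and 233 in XmO and at 425 and 455 in XpO (-0.99, SE 0.19), with -0.52 in XX females. Tubb4a, a beta-tubulin of neurons and oligodendrocytes, was at 2556, 2967 and 2886 in XmO and at 3851 and 4424 in XpO (-0.56, SE 0.12), with -0.46 in XX females. A probe set for cytoplasmic beta-actin (Actb) that also matches related sequences gave 2424, 1451 and 1971 in XmO and 3349 and 3545 in XpO (-0.85, SE 0.18), with -0.97 in XX females. The other Actb probe set showed -0.56 with overlapping groups. For the first probe set given of each of these 4 genes, XX_Paf lay below XX_InX on every array. Their single X groups did not overlap by the rule of choice. The other Actb probe set also overlapped in XX females.

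Other lower estimates, apart from Phf12, had little or no counterpart in XX females. Prdx3, a mitochondrial peroxiredoxin that removes hydrogen peroxide, was at 805, 1052 and 1015 in XmO and at 1605 and 1377 in XpO (-0.65, SE 0.15), while the XX difference was 0.03. Npy, the neuropeptide Y precursor, was at 1307, 1299.6 and 1238 in XmO and at 1766 and 1856.5 in XpO (-0.50, SE 0.12), with -0.05 in XX females. Both genes were well above background on every array, and their XX groups overlapped. Anpep, a membrane aminopeptidase of brain vessels, was above background on 1 of 3 XmO arrays (-1.61, SE 0.36; -0.17 in XX females). A Map1b probe set for the microtubule-associated protein of growing axons gave -1.07. A Dgat1 probe set for the enzyme that completes triglyceride synthesis gave -1.15. Both probe sets were above background on 2 of 3 XmO arrays. Another Dgat1 probe set, brighter, gave 0.14, and its groups did not overlap, with XmO higher. Phf12, a subunit of a Sin3 corepressor complex, showed -0.80 in single X and -0.31 in XX brains, where XX_Paf lay below XX_InX on every array. For Prdx3, Npy, Anpep, Map1b, Dgat1 and Phf12, limma's adjusted p in the single X comparison was 0.436 to 0.552, and that of the difference from the XX comparison was 0.832 to 0.857.

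Globin genes were among the higher estimates in XmO, with Hbb-b2 of smallest p. Hbb-b2, an adult beta-globin gene whose probe set can also read the other beta-globin copies, was at 2295, 2289.9 and 3753 in XmO and at 1109 and 1058 in XpO (1.32, SE 0.24; limma, adjusted p = 0.193). Hba-a1, an alpha-globin gene with a near-identical copy, was at 9381, 8648 and 13158 in XmO and at 6113 and 4541 in XpO (0.96, SE 0.22; adjusted p = 0.436). In XX females the same cross gave the higher values, with 1.36 for Hbb-b2 and 1.58 for Hba-a1 (SE 0.22; limma, adjusted p = 0.0211). The summed intensity of 17 erythroid genes on the array was 14330 to 20878 in XmO, 9734 to 10633 in XpO, 14838 to 20228 in XX_Paf and 7444 to 9720 in XX_InX. Globin RNA makes up most of that sum. Over the 14 tested erythroid genes, 7 estimates were lower and 7 higher in XmO, with a median of -0.00. Epor, the erythropoietin receptor, was at least 1.18-fold lower in XmO, with 0 of 3 XmO arrays above background, a bound not reached without XpO 15, and Nfe2, an erythroid transcription factor, -0.60 with 1 of 3. Fewer cells of a type and less RNA per cell cannot be told apart in whole brain RNA, and the part of blood in the other differences was not tested.

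Rbm39, a splicing factor, was at 792, 1687 and 1508 in XmO and at 544 and 542 in XpO (1.22, SE 0.25; limma, adjusted p = 0.329). XX females showed 1.46, and a further Rbm39 probe set showed 0.28 in single X and 0.59 in XX brains. Without XmO 1, the lowest of the XmO arrays, the first probe set passed (1.55; limma, adjusted p = 0.00285). A probe set for Sox11, a transcription factor of immature neurons, gave 0.89 in single X and 0.65 in XX brains, but the brighter Sox11 probe set gave -0.04 and 0.10. Ogfr, the opioid growth factor receptor, gave 0.60 and 0.52, Ddx5, an RNA helicase, 0.39 and 0.30, and Ocel1 1.15 and 0.79. Macir gave 0.59 and 0.25. Ndufs1, the largest subunit of respiratory complex I, was at 1838, 1480.3 and 1741 in XmO and at 1204 and 1187 in XpO (0.49, SE 0.13), with 0.12 in XX females. Myh7, a slow muscle and heart myosin, had 1.79 with 1 of 2 XpO arrays above background, and its groups overlapped in XX females (0.47).

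Across all tested probe sets the single X difference and the XX difference, which share no arrays, had a Pearson's r of 0.12 and a Spearman's rho of 0.18. The signs were the same for 4970 of 8695 (57.2%). Of the 1515 probe sets whose single X arrays did not overlap, 974 had the same sign in XX females (64.3%). XX_Paf and XX_InX also did not overlap for 411 of them in the same direction and for 136 in the opposite direction. Of the 25 genes named from the single X comparison, 19 had the same sign in XX females (76%). This relation depended on which arrays were used, most of all on the XpO arrays. Without XpO 15, r was 0.33 with 66.2% of signs the same, and without XpO 18 it was -0.18 with 42.7% the same. Without XmO 1 it was 0.04 with 54.4% the same. Leaving out any other single array gave 0.09 to 0.19. Probe sets are not independent replicates, so these values describe these arrays.

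**Figure D2:**
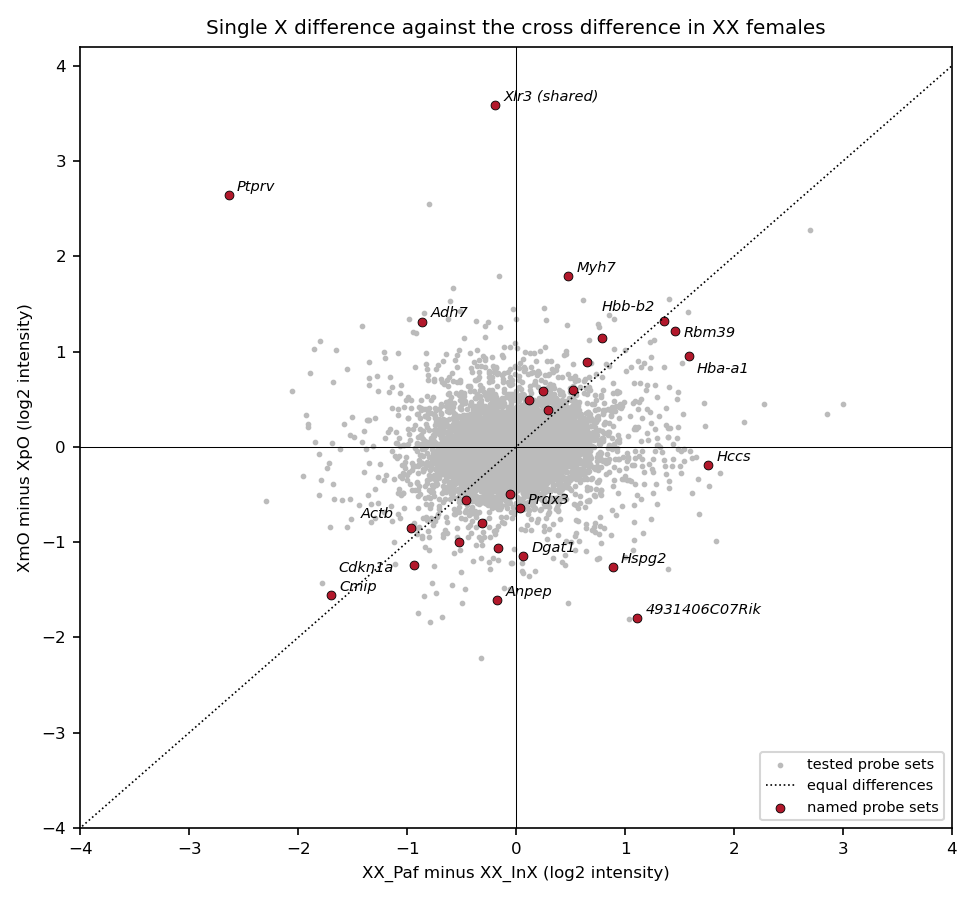
The log2 difference XmO minus XpO (vertical axis) against XX_Paf minus XX_InX (horizontal axis) for each of the 8695 tested probe sets (grey), with probe sets described in the text in red and a dotted line where both differences are equal. Cmip, Cdkn1a, Actb, Hbb-b2 and Rbm39 lie near the dotted line, Hccs has almost no single X difference, and Ptprv lies in the opposite corner.

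The difference of differences was tested directly, as (XmO minus XpO) minus (XX_Paf minus XX_InX), and 2 probe sets passed (0.023%), with 514 at an unadjusted p under 0.05 (5.91%). The X-linked gene Hccs, whose enzyme attaches heme to cytochrome c in mitochondria, differed between the XX groups and little between the single X groups. It was at 387, 385 and 350.5 in XmO and at 415 and 441 in XpO, a difference of -0.19 (SE 0.17). XX_InX was at 315.5 and 391, in the same range, but XX_Paf was at 1363, 1001 and 1237. The difference of differences was -1.95 (SE 0.24; limma, adjusted p = 0.0219). A dimmer Hccs probe set gave -1.16 with an adjusted p of 0.832 by limma. The call was lost without XmO 2 (adjusted p = 0.0765 by limma), XmO 7 (0.107) or XX_InX 1 (0.140), with estimates of -1.98, -1.91 and -1.80.

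Ptprv, a receptor-type protein tyrosine phosphatase on chromosome 1, reversed between the comparisons. It was at 99.4, 158.9 and 195.4 in XmO and at 17.9 and 30.3 in XpO. In XX_Paf it was at 20.9, 42.1 and 53.6, and in XX_InX at 207.5 and 244. Values in XpO and XX_Paf were under background on every array, so XmO was at least 2.75-fold higher than XpO (1.75 without XpO 15 and 4.33 without XpO 18). The single X difference did not pass by itself (2.64, SE 0.51; limma, adjusted p = 0.217), and the XX difference was -2.64. The difference of differences was 5.28 (SE 0.72; limma, adjusted p = 0.0313). That value depends on the floor and was 4.38 with a floor at the 20th percentile. The call was lost without XmO 2, XmO 7, XpO 15, XX_InX 1, XX_InX 19 or XX_Paf 2 (limma, adjusted p 0.0727 to 0.209), with estimates of 4.90 to 5.40. Both other Ptprv probe sets were under background on every array and were not tested.

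The next probe sets in this test did not pass. Hspg2 codes for perlecan, a heparan sulfate proteoglycan of basement membranes, and was at 133.5, 133.7 and 129.2 in XmO, above background on 2 of 3 arrays, and at 251 and 399 in XpO. XX_Paf was at 221 to 411 and XX_InX at 140.0 and 165.5, so the order was turned (difference of differences -2.15, SE 0.41; limma, adjusted p = 0.391). Adh7, an alcohol dehydrogenase that oxidises retinol, was at 299, 313.5 and 364 in XmO and at 159.6 and 106.3 in XpO, with 203, 169 and 378 in XX_Paf and 430.2 and 425 in XX_InX (2.18, SE 0.43; adjusted p = 0.391). Col5a1, a fibrillar collagen chain, had -2.67 and the uncharacterised 4931406C07Rik -2.91, both with 1 of 3 XmO arrays above background. The brighter Col5a1 probe set showed -0.03 between XmO and XpO, and both brighter 4931406C07Rik probe sets gave smaller differences of differences (-0.32 and -0.23). Trnt1, which adds the CCA end to transfer RNAs, had -1.23, Rgs3, a regulator of G protein signalling, 0.68, and Tef, a clock-controlled transcription factor, 1.48. Six4, a homeobox transcription factor, had 2.24, a value set partly under background, with XX_Paf under background on 3 of 3 arrays and XpO on 1 of 2. Limma's adjusted p for these last 6 genes was 0.528 to 0.832.

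X-linked probe sets were spread evenly around 0. Of 241 tested X-linked probe sets, 120 had lower and 121 higher estimates in XmO, with a median of 2.83e-04, against 3838 lower and 3856 higher of 7694 autosomal ones with a median of 6.05e-04. The groups did not overlap for 30 X-linked probe sets with XmO lower and 21 with XmO higher (21.2%, against 17.6% of autosomal ones). 11 X-linked probe sets had an unadjusted p under 0.05 (4.56%, against 4.81%), and none passed limma's adjustment.

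The probe set shared by Xlr3a, Xlr3b and Xlr3c had the largest X-linked difference. It was at 204.7, 91.8 and 400.2 in XmO, above background on every array, and at 15.5 and 17.0 in XpO, under background on both. XmO was thus at least 3.70-fold higher, with 2.35 without XpO 15, 5.83 without XpO 18, 2.59 without XmO 7 and 5.41 without XmO 2. The fitted difference, which depends on the floor, was 3.59 (SE 0.87; limma, adjusted p = 0.521; higher on 3 of 3 XmO arrays). In XX females, which carry both parental copies, values were 88.2 and 56.3 in XX_InX and 61.9, 17.2 and 219.3 in XX_Paf, overlapping each other. Of these, 0 of 2 XX_InX and 2 of 3 XX_Paf arrays were above background, 61.9 only just (background 60.3). The SD over the XmO arrays was 156. The probe sequences were not used here. Xlr4a, whose probe set was too dim to be tested, was at 39.1, 60.0 and 70.0 in XmO and at 21.7 and 9.6 in XpO, with 38.3 and 47.2 in XX_InX and 2.6 to 22.5 in XX_Paf. All of these Xlr4a values were under background. Rhox5, a homeobox gene whose early embryonic expression is imprinted, Tktl1, a transketolase-like gene, and a probe set shared by Xlr and 3830403N18Rik were also too dim to be tested, and their single X groups overlapped.

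Other X-linked genes of small p were chosen after their values were seen, and none passed limma's adjustment (adjusted p 0.756 to 0.969). Pak3, a kinase of dendritic spines, was at 268, 286 and 350.3 in XmO and at 449 and 466 in XpO (-0.61, with -0.45 in XX females). Nsdhl, a sterol dehydrogenase of cholesterol synthesis, showed -0.48 and, in XX females, -0.44. Erdr1, near the pseudoautosomal region, showed -0.96 with XpO arrays at 7395 and 12558. Maged1 (0.36), the nucleotide synthesis enzyme gene Prps1 (0.35) and Armcx2 (0.31) had higher estimates in XmO. Xist itself had -0.85, at values near background, as given above. Its difference of differences was -1.66 (limma, adjusted p = 0.391), a value set partly under background, with no XmO array and 1 of 2 XpO arrays above it. Among 6 tested genes known to escape X inactivation, 2 had lower and 4 higher estimates in XmO (median 0.04). Eif2s3x, a subunit of translation initiation factor eIF2, was at 4737.5, 4336 and 4617 in XmO and at 3932 and 3755 in XpO (0.25, SE 0.10), with -0.00 in XX females. Bgn, the extracellular proteoglycan biglycan, showed -0.36, with -0.26 in XX females, and its other probe set -0.13 with overlapping groups. The histone demethylase gene Kdm6a showed 0.29, with 0.68 in XX females.

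Autosomal imprinted genes, of which both groups carry a maternal and a paternal copy, showed no common direction. Of 17 tested genes read from the maternal allele, 8 had lower and 9 higher estimates in XmO (median 0.03), and 8 of 17 had groups that did not overlap, against 18.02% of all 6458 genes tested. A probe set for Meg3, the maternally expressed noncoding RNA of the Dlk1 region, was at 11442, 9472 and 9655 in XmO and at 7957 and 4657 in XpO (0.74, SE 0.23; limma, adjusted p = 0.780). The XX females gave a like 0.79, and a second Meg3 probe set gave -0.00 and 0.36. Gnas, which codes for the stimulatory G protein alpha subunit, was at 19407 to 22529 in XmO and at 24208 and 26062 in XpO (-0.27, with -0.37 in XX females). Both other Gnas probe sets, which were dimmer, gave 0.02 and 0.23, with 0.33 and 0.15 in XX females and overlapping groups throughout. Ascl2, a placental transcription factor, had 1.54 with 2 of 3 XmO and 1 of 2 XpO arrays above background. Osbpl5 had -0.31. Of 14 genes read from the paternal allele, 6 had lower and 8 higher estimates (median 0.05), and 2 of 14 had groups that did not overlap (14.3%). The lower ones included Sgce (-0.37), a sarcoglycan, Usp29 (-0.50), the growth factor gene Igf2 (-0.27, with overlapping groups) and Mest (-0.32). The 2 genes without overlap, Sgce among them, were lower in XmO. The higher ones included Peg10 (0.49), a retrotransposon-derived gene, and Impact (0.32), both with overlapping groups.

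The lists were chosen with earlier results of these data known, and those of the cell cycle and of actins and tubulins were additions. Of the lists with at least 6 tested genes, cell cycle genes had the lowest median. 28 of 32 tested genes had lower estimates in XmO (median -0.24), against 3235 of 6458 over all genes (median -0.00). None passed by limma. An unadjusted p under 0.05 was found for 2 genes, both lower, against 158 lower and 150 higher of 6458. The groups did not overlap for 9 genes with XmO lower and for 1, Plk1, with XmO higher, 31.25% against 18.02% over all genes. Ccna2, the cyclin of S phase, was at 580.3, 618 and 558 in XmO and at 704 and 954 in XpO (-0.49, SE 0.16; limma, adjusted p = 0.780). Cdk1, the mitotic kinase, had -0.44, Mcm4, a subunit of the replicative helicase, -0.55, and Mad2l1, a spindle checkpoint protein, -0.43. Mki67, the proliferation marker, and Pcna, the DNA polymerase clamp, showed 0.01 and -0.04. The summed intensity of the 36 list genes on the array was 10353 to 10799 in XmO and 12026 to 12957 in XpO. In XX females 18 of 32 estimates were lower in XX_Paf (median -0.05), with sums of 11109 to 11851 in XX_Paf and 11426 to 11621 in XX_InX. Without XpO 18 the count was 21 of 32 and without XpO 15 it was 25 of 32. The order of the lists changed with the arrays. Without XpO 15 the medians of the interferon (-0.51) and pituitary (-0.49) lists were lower than that of the cell cycle list (-0.31), and without XmO 7 that of the interferon list was (-0.32 against -0.25). The difference between the single X and XX counts was not tested.

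**Figure D3:**
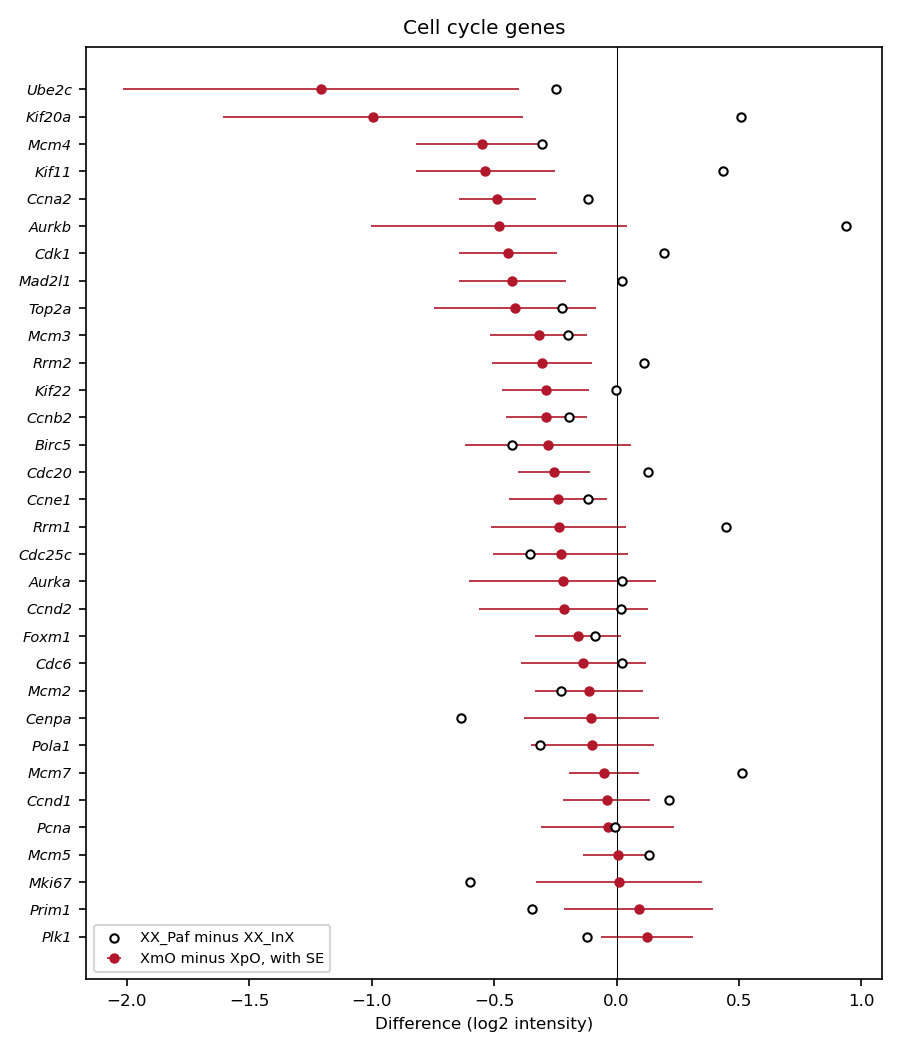
Log2 difference of each tested cell cycle gene between XmO and XpO (red points, bars are the SE) and between XX_Paf and XX_InX (open circles). 28 of the 32 red points lie left of 0, whereas the open circles fall on both sides.

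Cytoplasmic actins and tubulins leaned the same way in both comparisons. 17 of 18 had lower estimates in XmO (median -0.19; 15 of 18 without XpO 15 and likewise without XpO 18), and 16 of 18 were lower in XX_Paf (median -0.25). None passed by limma in either comparison. Besides Tubb4a, Tuba1a, an alpha-tubulin of young neurons, was at 32267 to 39279 in XmO and at 43652 and 52535 in XpO (-0.43, SE 0.14), with -0.16 for its other probe set. Tubg1, the gamma-tubulin of centrosomes, had -0.61, with 0.28 in XX females, and Tubb6 -0.56, with -0.22. Tubulin genes are alike in sequence, so several of their probe sets may read more than 1 gene.

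Genes that brake the cell cycle or respond to p53 had lower estimates for 3 of 14 (median 0.14), Cdkn1a and Gadd45b (-1.30; 1 of 3 XmO arrays above background) among them. Without XpO 18 it was 8 of 14 with a median of -0.01. Interferon response genes had lower estimates for 10 of 12 (median -0.21), but without XpO 18 for 6 of 12 (median 0.02), and Ifitm3 was the only one with an unadjusted p under 0.05. Hypoxia and glycolysis genes had lower estimates for 4 of 17 (median 0.11), and without XpO 18 for 8 of 17. The direction or the count in these lists turned on 1 array.

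**Figure D4:**
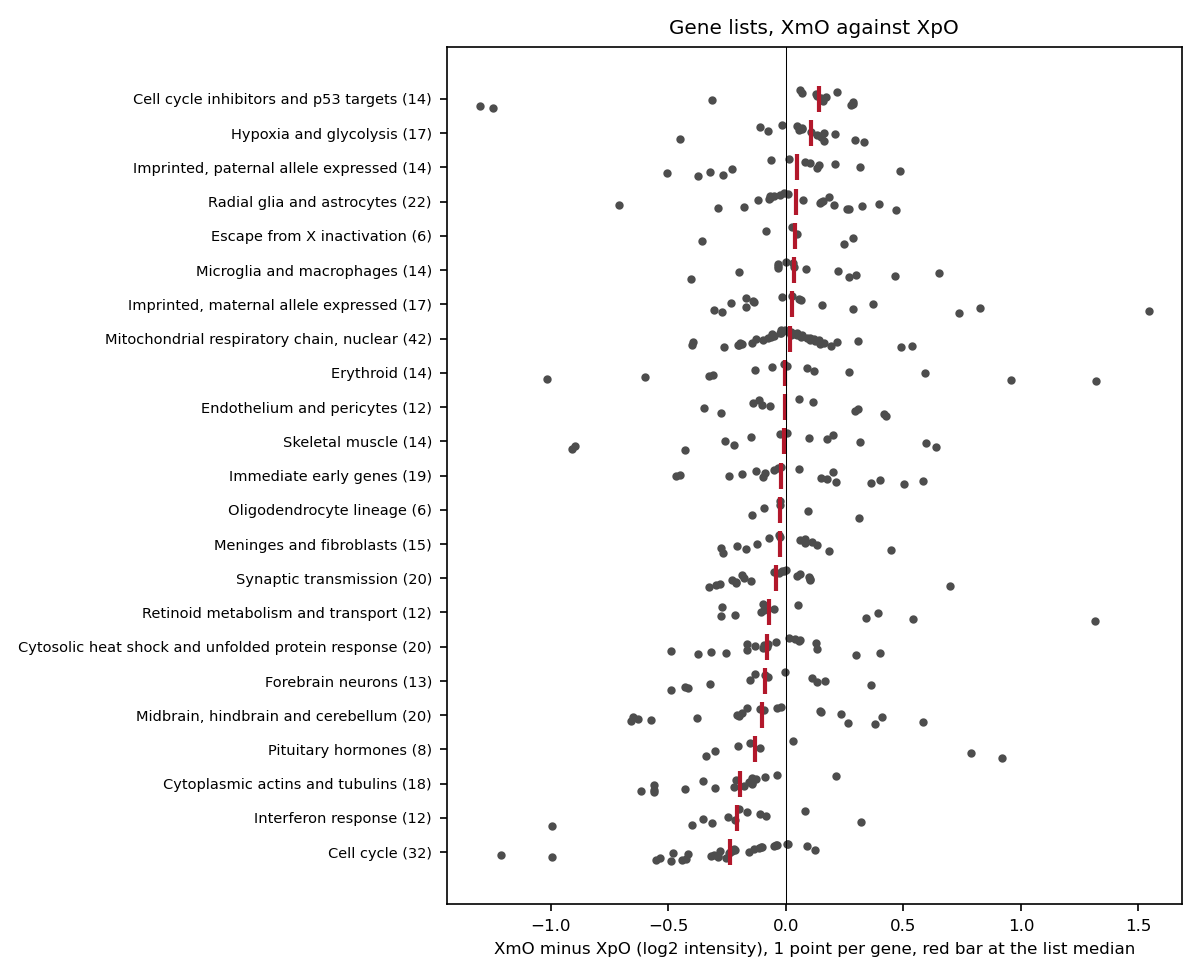
Log2 difference XmO minus XpO for each tested gene of each list with at least 6 tested genes (points) and the list median (red bars), with the number of genes in brackets. Cell cycle, interferon response and actin and tubulin genes have the lowest medians (-0.24, -0.21 and -0.19), and most marker lists of cell types lie within 0.1 of 0.

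Among markers of the cell types that whole brain can hold, in no list did XmO and XpO separate for more than 33.3% of the tested genes, against 18.02% over all genes, and no list had a member that passed by limma. Forebrain neuron genes had lower estimates for 9 of 13 (median -0.09), with Neurod6, a transcription factor of cortical neurons, at 666, 782.5 and 606 in XmO and at 998 and 912 in XpO (-0.49), and Tbr1, a transcription factor of deep cortical layers, at -0.41. Nr2f1, a transcription factor of caudal cortex, showed 0.36 with overlapping groups, and without XpO 18 the forebrain count was 7 of 13. Midbrain, hindbrain and cerebellum genes had lower estimates for 13 of 20 (median -0.10), although En2 (0.38) and Zic1 (0.27) were higher. Radial glia and astrocyte genes were lower for 10 of 22 (median 0.04), oligodendrocyte lineage genes for 4 of 6 (-0.02), microglia and macrophage genes for 6 of 14 (0.03) and endothelial and pericyte genes for 6 of 12 (-0.00). Genes of meninges and fibroblasts were lower for 8 of 15 (-0.02), choroid plexus genes for 1 of 4 (0.29), pituitary hormone genes for 5 of 8 (-0.13) and skeletal muscle genes for 7 of 14 (-0.01). Several of these counts turned on which XpO array was used. Oligodendrocyte genes were lower for 0 of 6 without XpO 18 (median 0.26) and for 5 of 6 without XpO 15 (-0.28), and microglia genes for 2 of 14 (0.28) and 10 of 14 (-0.08). For meninges and fibroblasts it was 4 of 15 (0.18) without XpO 18 and 11 of 15 (-0.15) without XpO 15, and for pituitary hormones 3 of 8 (0.28) and 7 of 8 (-0.49). Summed intensities of the forebrain list were 11793 to 15266 in XmO and 13141 to 14227 in XpO, overlapping. Their part in the differences above was not tested. Synaptic genes were lower for 14 of 20 (-0.04), immediate early genes for 10 of 19 (-0.02), nuclear genes of the respiratory chain for 20 of 42 (0.02), heat shock and unfolded protein response genes for 12 of 20 (-0.08) and retinoid genes for 7 of 12 (-0.07).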

How the data were processed

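RNA of newborn whole brain was measured on 10 arrays, of which 5 carry the single X comparison. The deposited table gives 1 linear intensity per probe set and array; the authors' summarisation method is not given in the sources used here. The mean after trimming 2% at each end lies at 500.3 on every array, so the deposited intensities had been scaled. No scan dates or detection calls were used. Of 12488 probe sets, 66 controls were left out. The probe table gave 1 symbol for 10833, several for 396 and none for 1193, and chromosomes came from a GRCm38.p6 gene table by identifier (10817 of 10833). The files name no genome build, so coordinates of the measured genes are not printed; those of the Xlr3 windows are RefSeq's on GRCm38.p6.

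Intensities under the 10th percentile (15) were raised to it and taken to log2. A mean log2 value at or over the 30th percentile was required, which left 8695 probe sets. They were tested two-sided with limma 3.58.1 in R 4.3.3, with 1 mean per group over all 10 arrays, an intensity trend in eBayes and 6 residual degrees of freedom. Benjamini-Hochberg adjustment ran within each comparison, and calls were made under 0.05. The number of arrays limits the precision. Where a group lay at or under background on every array, it was set to background array by array. The ratio of geometric means, taken from mean log2 values, is given as a bound that leaves out the spread between arrays. The steps were tested on simulated data.

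Named genes were the called ones, the 12 of smallest p in each direction that met the conditions in the text, the called ones and the 4 of smallest p in each direction for the difference of differences whose single X groups do not overlap and whose brighter group lies above background on every array, all measured X-linked imprinted genes and up to 4 members of each list. Each gene entered a list by 1 probe set. The comparison, members, lists and rules were chosen with earlier results of these data known. Alternatives changed the floor, filter, normalization, variance prior and arrays.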

Additional observations from a re-analysis of the deposited data

Results flagged for a closer look

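The single X difference departed from the XX difference between the same crosses for 2 probe sets, by a test of the difference itself. For Hccs it was -1.95 (limma, adjusted p = 0.0219), with 374 ± 20.5 in XmO (SD, n = 3), 428 ± 18.6 in XpO (n = 2), 1200.2 ± 184 in XX_Paf (n = 3) and 353 ± 53.5 in XX_InX (n = 2). For Ptprv it was 5.28 (limma, adjusted p = 0.0313), with 151 ± 48.5 in XmO, 24.1 ± 8.77 in XpO, 38.9 ± 16.6 in XX_Paf and 226 ± 25.8 in XX_InX; the XpO and XX_Paf values are under background. Each of the 2 calls was lost when some single arrays were left out, as given in the next part.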

How the results depend on the processing

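Of 551 differences between XmO and XpO, for 33 probe sets under 17 alternatives, 549 kept their direction and side of the threshold, and none changed direction. The exceptions are Cmip without XpO 18 and XX_InX 1 and Rbm39 without XmO 1, both given above. The single X groups of these probe sets do not overlap, mostly by the rule of choice. Leaving out arrays could therefore not turn a direction. Changing the filter, the variance prior or the XX arrays leaves the difference itself unchanged. All but Cmip had not passed to begin with, so these counts say little about stability. Between XmO and XpO, 1 probe set passed in the main setting, 3 with no filter on dim probe sets (Melk, Ccs and Cmip) and 0 without XpO 18 and XX_InX 1 (limma; 609 at an unadjusted p under 0.05). Leaving out 1 array at a time gave 1 to 7, with 7 without XpO 15 (930 unadjusted), 4 without XmO 1 and 2 without XpO 18. Between XX_Paf and XX_InX, 7 passed, 17 with no filter, 2 without an intensity trend, 21 without XpO 18 and XX_InX 1, and 2 to 17 with 1 array left out. For the difference of differences, 2 passed, 5 with no filter (neither Hccs, adjusted p = 0.0501, nor Ptprv, 0.154), 1 with a filter at the 50th percentile (Hccs), 0 without a trend (511 unadjusted; adjusted p = 0.0827 for both), 1 without XpO 18 and XX_InX 1, and 0 to 4 with 1 array left out. It was 0 by limma without XmO 2 (477 unadjusted), XmO 7 (345) or XX_InX 1 (374). Other alternatives kept the counts within 1.5 times. The causes were not tested. No paired analysis was possible because the groups compared share fewer than 2 replicate numbers. Of the 2 XpO arrays, leaving out either leaves 1, which is then assumed to vary like the other groups. The arrays cannot separate the Xlr3 copies, and values under background have no order.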
